A study of Mus musculus with 12 samples.

Results

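The replication-dependent histone genes encode the core histones H2A, H2B, H3 and H4 and the linker histone H1, the proteins around which new DNA is wrapped. They were examined in 12 cultured colonies of mouse dental epithelial stem cells from the labial cervical loop, the stem cell niche of the continuously growing incisor. The members were chosen by name: every array probe whose accession led, through a RefSeq table, to a gene with a name beginning Hist1h, Hist2h, Hist3h or Hist4h. The reference holds 70 genes so named, 3 of them pseudogenes, and 32 of them had a probe. They are 32 of the 17178 named genes on the array and hold 37 of its 41174 probes. A member had 1 probe except for 5 genes with 2. A total of 31 members passed the filter on dim probes and were tested among 31064 genes: 6 H1, 9 H2A, 8 H2B, 3 H3 and 5 H4 genes. The remaining member, H2ac8 (Hist1h2ae), was well above background on 1 of 12 arrays and was not tested.

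Every colony went onto its own 1-colour Agilent array covering the mouse genome. There were 4 wild-type colonies, 4 Bmi1 null colonies (Bmi1-, lacking a subunit of Polycomb repressive complex PRC1), and 4 colonies null for both Bmi1 and Ink4a/Arf (double null). The Ink4a/Arf locus, Cdkn2a, encodes the cell cycle inhibitor Ink4a and the p53 activator Arf. All mice were of mixed genetic background, and age, sex, treatment and the number of animals are not given in the sources used here. The p-values therefore measure the spread between single colonies. In bulk RNA a smaller share of cycling cells and less histone RNA per cell cannot be told apart.

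Most mammalian histone genes lie in clusters, with the largest on chromosome 13 in the mouse, and lack introns. Their mRNAs end in a stem-loop bound by Slbp instead of a poly(A) tail, and they accumulate in S phase, when DNA is copied. Transcription depends on Npat, a target of cyclin E and Cdk2, and each class carries its own promoter elements. H2A and H2B genes often stand in pairs that share the stretch between them. A few members are known from the germ line: H1f6 (Hist1h1t), H2ac1 (Hist1h2aa) and H2bc1 (Hist1h2ba) encode testis forms. Of the tested members 23 belong to the Hist1 cluster, 5 to Hist2, 2 to Hist3 and 1 to Hist4.

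Promoter sequence (build GRCm38.p6) was available for 28 of the 32 members. It was searched over the 250 bases before each gene's start for 4 motifs on both strands: the TATA box (TATAAA), the CCAAT box (CCAAT), the octamer of H2A and H2B genes (ATTTGCAT) and the AC box of H1 genes (AAACACA). None of the 4 motifs lies within another. The CCAAT box was found before 25 of 28 members, and before 33.8% of all 32851 promoters. TATAAA was found before 15 members and 12.4% of all promoters. The octamer was found before 6 of 10 H2A and 4 of 6 H2B genes, 0 of 12 others, and 1.60% of all promoters. The AC box was found before 5 of 6 H1 genes, 2 of 10 H2A and 2 of 6 H2B genes, and 6.25% of all promoters. A match is a description of the letters, and no match says nothing of the factor.

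The sequences below are those to which the results return: 3 stretches between an H2A and an H2B gene whose levels moved apart or together, and the promoter of H1f1 (Hist1h1a), the member with the largest rise between the mutants. Capitals mark any of the 4 motifs on either strand. The first is the whole 239-base stretch between H2ac6 (Hist1h2ac) and H2bc4 (Hist1h2bc) at chr13:23683960-23684198, minus strand, with 1 TATA box, 3 CCAAT boxes and 1 octamer. The second is the whole 191-base stretch between H2ac20 (Hist2h2ac) and H2bc21 (Hist2h2be) at chr3:96220881-96221071, minus strand, with 1 TATA box and 3 CCAAT boxes; the octamer of H2ac20's 250-base window lies beyond it. The third is 250 of the 280 bases between H2bc1 and H2ac1 at chr13:23934157-23934406, minus strand, with 1 TATA box, 4 CCAAT boxes, 1 octamer and 1 AC box. The last is H1f1's upstream stretch at chr13:23763418-23763667, plus strand, with 1 TATA box and 1 CCAAT box.
H2ac6 and H2bc4: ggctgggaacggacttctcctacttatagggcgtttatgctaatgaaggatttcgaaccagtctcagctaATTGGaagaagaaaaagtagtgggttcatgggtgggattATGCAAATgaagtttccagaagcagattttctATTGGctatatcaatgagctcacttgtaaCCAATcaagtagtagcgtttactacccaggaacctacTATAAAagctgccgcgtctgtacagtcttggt
H2ac20 and H2bc21: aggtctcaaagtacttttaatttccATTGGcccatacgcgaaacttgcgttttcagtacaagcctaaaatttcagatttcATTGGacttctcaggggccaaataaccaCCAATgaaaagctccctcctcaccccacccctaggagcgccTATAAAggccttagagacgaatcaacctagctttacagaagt
H2bc1 and H2ac1: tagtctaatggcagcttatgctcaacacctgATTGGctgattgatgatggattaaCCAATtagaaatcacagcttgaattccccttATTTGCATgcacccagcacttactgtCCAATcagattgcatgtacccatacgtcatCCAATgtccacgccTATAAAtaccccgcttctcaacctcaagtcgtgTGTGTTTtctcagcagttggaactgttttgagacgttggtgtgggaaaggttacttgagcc
H1f1: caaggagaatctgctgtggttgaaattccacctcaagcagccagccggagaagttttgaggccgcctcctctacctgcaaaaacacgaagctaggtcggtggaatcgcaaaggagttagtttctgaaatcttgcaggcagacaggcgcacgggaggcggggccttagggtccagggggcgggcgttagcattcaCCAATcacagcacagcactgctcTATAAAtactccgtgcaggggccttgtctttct

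A few facts of the whole set bear on the values. The level of a gene is given as its log2 signal less that array's 75th percentile. A gene was called changed where its limma p-value, after Benjamini-Hochberg adjustment over all 31064 genes, was under 0.05. The interquartile range of log2 signal was 2.49 to 2.62 on wild-type arrays, against 4.32 to 4.69 on Bmi1 null and 4.04 to 4.93 on double null arrays. The median change of all genes was -1.24 in Bmi1 nulls and -1.39 in double nulls against wild type, and -0.060 between the mutants, so changes are also given relative to that median. Of all genes 58.3% were called lower and 25.2% higher in Bmi1 nulls, and 59.7% and 25.7% in double nulls, against wild type. All 7 tested immune and all 5 tested endothelial markers were lower in both mutants than in wild type. Of 12 mesenchymal markers 7 were lower and 1 higher in Bmi1 nulls, and 6 lower and 1 higher in double nulls. The mesenchymal lower counts lay near the shares of all genes, but those of the immune and endothelial markers lay above them. Measured from the all-gene median, the immune median change was -2.29 in Bmi1 nulls and -2.38 in double nulls. The endothelial median change, measured likewise, was -1.19 and -0.89. Of 11 dental epithelial markers 7 were higher and 3 lower in Bmi1 nulls, and 8 higher and 1 lower in double nulls. The epithelial keratin Krt14 was at 7.44 ± 0.78 (SD, n = 4) in wild type, 8.60 ± 0.24 in Bmi1 nulls and 8.75 ± 0.48 in double nulls. The marker lists' median levels ran from 0.015 to 0.58 (immune) and -1.81 to -1.60 (endothelial) in wild type, from -3.68 to -2.99 and -4.23 to -3.83 in Bmi1 nulls, and from -3.56 to -2.72 and -4.16 to -3.40 in double nulls. For the mesenchymal list they were -0.97 to -0.39, -2.16 to -1.74 and -3.02 to -0.034, and for the epithelial list -0.73 to -0.19, 0.65 to 0.98 and 0.89 to 2.24, in the same order of genotypes. The part of these markers in the histone values was not tested. Bmi1 itself was at -0.27 ± 0.46 in wild type, -2.36 ± 0.15 in Bmi1 nulls and -2.53 ± 0.21 in double nulls, and Cdkn2a had a signal well above background on all 4 Bmi1 null arrays but on 0 of 4 double null arrays. Double null replicate 1 had 1336 spots marked as outliers, against 55 to 132 on the other arrays.

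Across the 3 genotypes the typical histone gene was lowest in wild type, higher in Bmi1 nulls and highest in double nulls. The median level of the 31 genes was 0.78, 1.57, 1.42 and 1.53 on the wild-type arrays. It was 2.50, 2.10, 2.81 and 2.33 on the Bmi1 null arrays, and 3.64, 3.12, 3.15 and 3.10 on the double null arrays. The 3 genotypes did not overlap. Measured above the median of all genes of the same array, the histone median averaged 2.35 ± 0.39 (SD over 4 arrays) in wild type, 4.59 ± 0.36 in Bmi1 nulls and 5.53 ± 0.10 in double nulls. The means of 21 genes stood in this order, and 17 genes had no overlap between any of the 3 genotypes in this order. Neither order was counted over all genes. The first needs a rise between the mutants, found in 44.8% of all genes. The second needs a rise without overlap between them, found in 6.6% of all genes, so neither share can be larger. These values describe the list and carry no test of it.

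**Figure D1:**
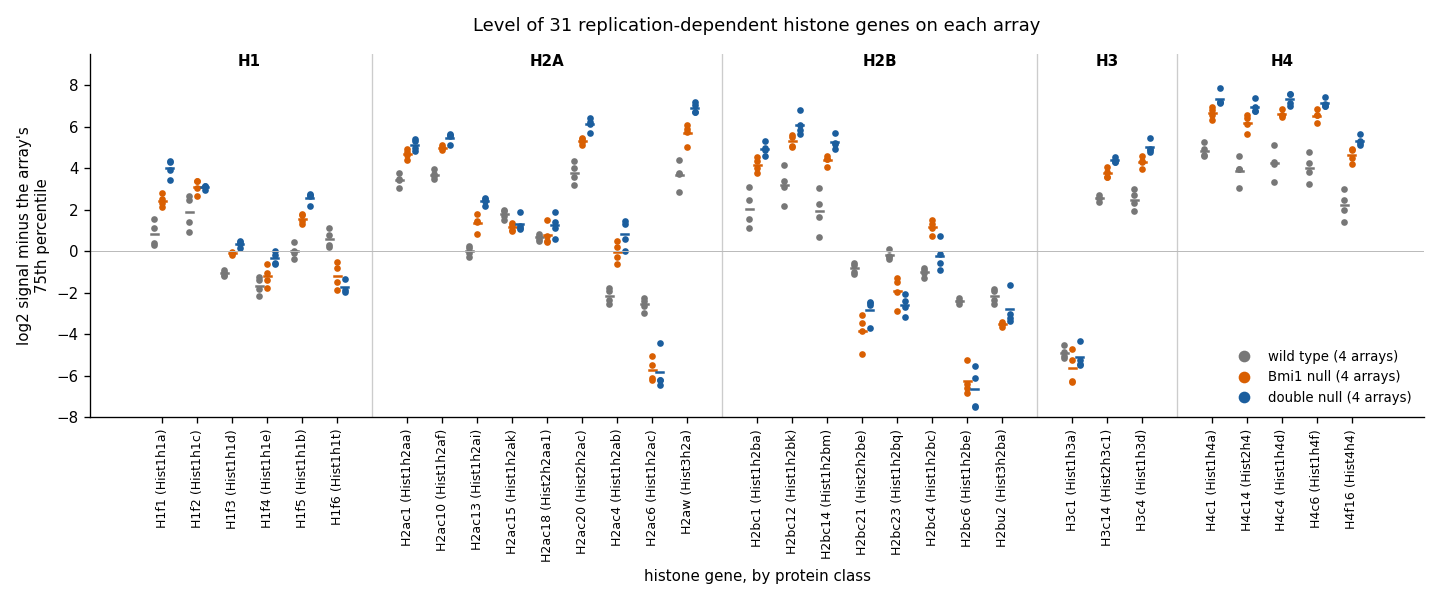
Level of the 31 tested histone genes (x axis, by protein class) on each array, as log2 signal less that array's 75th percentile (y axis); points are arrays, bars the mean of 4 arrays of a genotype. Most genes climb from wild type to double null, while H2bc21, H2bc23, H2ac6, H2bc6, H2bu2, H1f6, H2ac15 and H3c1 have their highest mean in wild type.

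Setting Bmi1 null beside wild-type colonies addresses what follows at the RNA level from losing Bmi1. Of the 31 histone genes, 21 were higher, 7 were lower and 3 were not called. Of the 7, H2ac6 and H2bc6 passed the filter through the wild-type arrays alone, so a lower signal in the mutants was needed. With probes well above background on all 12 arrays, 4 genes were called lower. Among all genes 25.2% were called higher and 58.3% lower, so a larger share of histone genes than of all genes was higher. Their median change was 1.36 on the log2 scale, or 2.60 above the median of all genes; the latter was 1.22 with quantile normalization and 1.09 with the authors' processed values. When each array was centred on its own median instead, 23 histone genes were higher and 5 lower, beside 36.8% and 41.8% of all genes. Genes with a high signal rose as a whole: of 2258 genes with a mean level above 2, 79.1% were higher, with a median change of 1.61. All 16 histone genes above that level were higher, with a median of 1.91. The level is a mean over all 12 arrays, so a rise in the mutants helps a gene to pass it: H1f1, H1f2 and H2bc14, with wild-type means of 0.83, 1.88 and 1.92, passed through the mutant arrays, and the same holds among the 2258. The part of the narrow signal range of the wild-type arrays in these calls was not tested.

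Histone H4 rose in every gene measured. H4, with H3, forms the inner tetramer of the nucleosome, and its genes encode the same protein. H4c6 (Hist1h4f; chr13:23551286-23551668) was at 3.26, 3.80, 4.25 and 4.76 in wild-type colonies and at 6.54, 6.16, 6.83 and 6.55 in Bmi1 null colonies. All 4 Bmi1 null values lay above all wild-type values, a rise of 2.51 ± 0.29 (SE; limma adjusted p = 5.30e-06). The other 4 genes, H4c1, H4c4, H4c14 and the lone Hist4 gene H4f16, rose by 1.80 to 2.42. H4c4 (Hist1h4d) had 2 probes, which rose by 2.37 and 2.72. Coding sequences of H4 genes resemble each other, so a probe may also bind transcripts of other copies, and the probe sequences were not used here.

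Among H2B genes, whose product pairs with H2A, the picture was split, with 4 higher and 4 lower of 8. H2bc14 (Hist1h2bm) rose from 0.70, 1.65, 2.27 and 3.05 in wild-type colonies to 4.43, 4.45, 4.59 and 4.03 in Bmi1 null colonies, by 2.46 ± 0.40 (SE; limma adjusted p = 8.62e-05). The wild-type colonies differed from each other by up to several-fold here, yet none reached the Bmi1 null values. H2bc12 (Hist1h2bk), H2bc4 and the testis form H2bc1 rose by 2.10, 2.18 and 2.12. H2bc6 (Hist1h2be; chr13:23583670-23621124) lay at -2.28, -2.40, -2.53 and -2.41 in wild-type colonies and was not well above background on any mutant array. Its bound takes the higher of its own signal and the array's lowest signal well above background. By that bound Bmi1 nulls were at least 9.38-fold lower and double nulls at least 8.43-fold. The bound holds for this processing only. The limma adjusted p-values, 5.30e-06 and 2.10e-06, are of the measured changes, whose mutant values are background signal. With normexp background correction the double null change was -0.80 and not called (adjusted p = 0.086). H2bc21 (Hist2h2be; chr3:96221072-96223738) fell by 3.0 ± 0.38, from -0.83 ± 0.27 (SD, n = 4) to -3.83 ± 0.80, and H2bc23 (Hist1h2bq) fell by 1.73 ± 0.33 (SE). H2bu2 (Hist3h2ba) fell by 1.35, close to the median of all genes, and turned to a rise of 0.27 with quantile normalization and of 0.088 with the authors' processed values.

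In the H2A class 6 genes were higher, 2 lower and 1, H2ac18 (Hist2h2aa1), not called, though it was called higher with median centring (1.06, adjusted p = 0.014). H2ac4 (Hist1h2ab) rose by 2.09 ± 0.35 (SE) and H2aw (Hist3h2a) by 2.01 ± 0.32. H2ac1, a testis form in textbook accounts, was well above background on all 12 arrays and rose by 1.26 ± 0.21. As with H4, the probes of H2ac1 and H2bc1 may also bind transcripts of similar histone genes, which was not checked. H2ac6 (chr13:23683473-23683959) was well above background on 4 of 4 wild-type and 0 of 4 Bmi1 null arrays. By the same kind of bound it was at least 7.88-fold lower, and the limma adjusted p of its measured change was 1.59e-05. With the authors' processed values its fall was 0.22 on the log2 scale and was not called (adjusted p = 0.12). H2ac15 (Hist1h2ak) fell by 0.62 ± 0.22 (adjusted p = 0.018), a smaller fall than the median of all genes, and turned to a rise of 0.31 with median centring. The fall lost its call without wild-type replicate 4 (adjusted p = 0.052), within a range of 7.6e-06 to 0.25 over all alternatives. In double nulls H2ac15 changed by -0.45 and was not called (adjusted p = 0.067). It was called lower there with quantile normalization (-1.19, adjusted p = 0.00028) and the authors' processed values (-1.25, adjusted p = 3.5e-05). The same held with array weights, the replicate block, and without wild-type replicate 5 or double null replicate 2. H2ac10 (Hist1h2af) had 2 probes with opposite signs, the brighter at 1.29 and the dimmer at -0.98. Its direction is thus unsettled, and with the mean of both probes the change was 0.16 and not called. Of the 9 tested H2A and 8 tested H2B genes, H2ac6 and H2bc6 passed the filter through the wild-type arrays alone, so a lower signal in the mutants was needed for both. The other tested members bar H3c1 and H1f6 were well above background on all 12 arrays.

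For the linker histone H1, which binds the DNA between nucleosomes, 4 of 6 genes were higher. H1f1 rose by 1.61 ± 0.31 (SE), H1f5 (Hist1h1b) by 1.57 ± 0.22 and H1f2 (Hist1h1c) by 1.23 ± 0.34. The testis form H1f6 was the exception, at 0.78, 0.19, 1.12 and 0.30 in wild-type and -1.48, -1.89, -0.80 and -0.54 in Bmi1 null colonies. Its fall was 1.78 ± 0.32 (limma adjusted p = 0.00030), or a change of -0.54 relative to the median of all genes. H1f4 (Hist1h1e) changed by 0.47 and was not called, though it was called with median centring, quantile normalization, the authors' processed values and without Bmi1 null replicate 2. The 2 probes of H1f3 (Hist1h1d) went opposite ways, at 0.96 and -0.92, and their mean changed by 0.019. Of the 3 H3 genes, H3c4 (Hist1h3d) rose by 1.82 ± 0.26 and H3c14 (Hist2h3c1) by 1.18 ± 0.18. H3c1 (Hist1h3a), well above background on 2 of 4 arrays of wild type and of Bmi1 nulls and 3 of 4 of double nulls, changed by -0.73 and was not called (adjusted p = 0.082). It was called lower with slide as a fixed block (-0.92, adjusted p = 0.033), the replicate block (0.0087), array weights (0.022) and without Bmi1 null replicate 2 (0.014), but higher with quantile normalization (1.89, adjusted p = 0.00014) and the authors' processed values (0.46, adjusted p = 0.0056), so its direction is unsettled.

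Several of the smaller rises rested on the scaling. With quantile normalization H2ac20, H3c14, H2ac10, H1f2 and H2ac1 kept a positive change but lost the call, and the same 5 lost it with the authors' processed values. The 5 H4 genes, H2bc12, H2bc14 and H2aw kept theirs in both. Arrays also lay on 5 slides. On the slide with 2 wild-type and 2 Bmi1 null arrays the histone median changed by 1.67, beside -1.43 for all genes, and on the slide with 1 of each it changed by 1.27, beside -0.93.

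Double null colonies, compared with the same 4 wild-type colonies, showed 22 histone genes higher, 5 lower and 4 not called, beside 25.7% and 59.7% of all genes. This comparison shares its wild-type arrays with the one above, so the 2 sets of changes are not independent. The median change was 1.81, or 3.21 above the median of all genes (1.97 with quantile normalization and 1.59 with the authors' processed values). Of the 16 genes with a mean level above 2 all were higher, with a median of 2.88, beside 80.6% and 1.73 for all genes with that level. H2bc14 rose by 3.32 ± 0.40 (SE), H2aw by 3.24 ± 0.32 and H1f1 by 3.17 ± 0.31. H4c6, H4f16, H4c4 and H4c14 rose by 3.08 to 3.12, and H2ac4 by 2.98 ± 0.35. H1f4, not called in Bmi1 null colonies, rose by 1.32 ± 0.29 (limma adjusted p = 0.00082). H1f3 and H2ac10 count as higher by their brighter probes, at 1.42 and 1.78. The dimmer probe of H1f3 changed by -1.59 ± 0.32 (adjusted p = 0.00050), and that of H2ac10 by -0.53 and was not called (adjusted p = 0.16).

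The 5 lower genes were H2bc6, H2ac6, H2bc21, H2bc23 and H1f6, each also lower in Bmi1 null colonies. H2bc6 and H2ac6 passed the filter through the wild-type arrays alone, so a lower signal in the mutants was needed for both. With probes well above background on all 12 arrays, 2 genes were called lower. H2bc23 fell by 2.40 ± 0.33 (SE), H1f6 by 2.32 ± 0.35 over 3 double null arrays since 1 spot was an outlier, and H2bc21 by 1.98 ± 0.38. H2ac6 was well above background on 1 of 4 double null arrays, so its measured change of -3.27 rests mostly on background signal and is no exact size; with normexp background correction its change was -0.57 (adjusted p = 0.20). That correction also ended the call of H2bc6, at -0.80 (adjusted p = 0.086). H2bc4 was higher than wild type by 0.80 ± 0.31 (adjusted p = 0.029), with overlapping groups. It lost its call with slide as a fixed block (adjusted p = 0.26), with the replicate block (0.056), with normexp correction (0.055) and without any 1 of wild-type replicates 1 and 4 and double null replicates 2 and 4 (0.056 to 0.088). On the slide shared by 1 array of each genotype the histone median was 2.36 higher in the double null array than in the wild-type array, beside -1.26 for all genes.

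**Figure D2:**
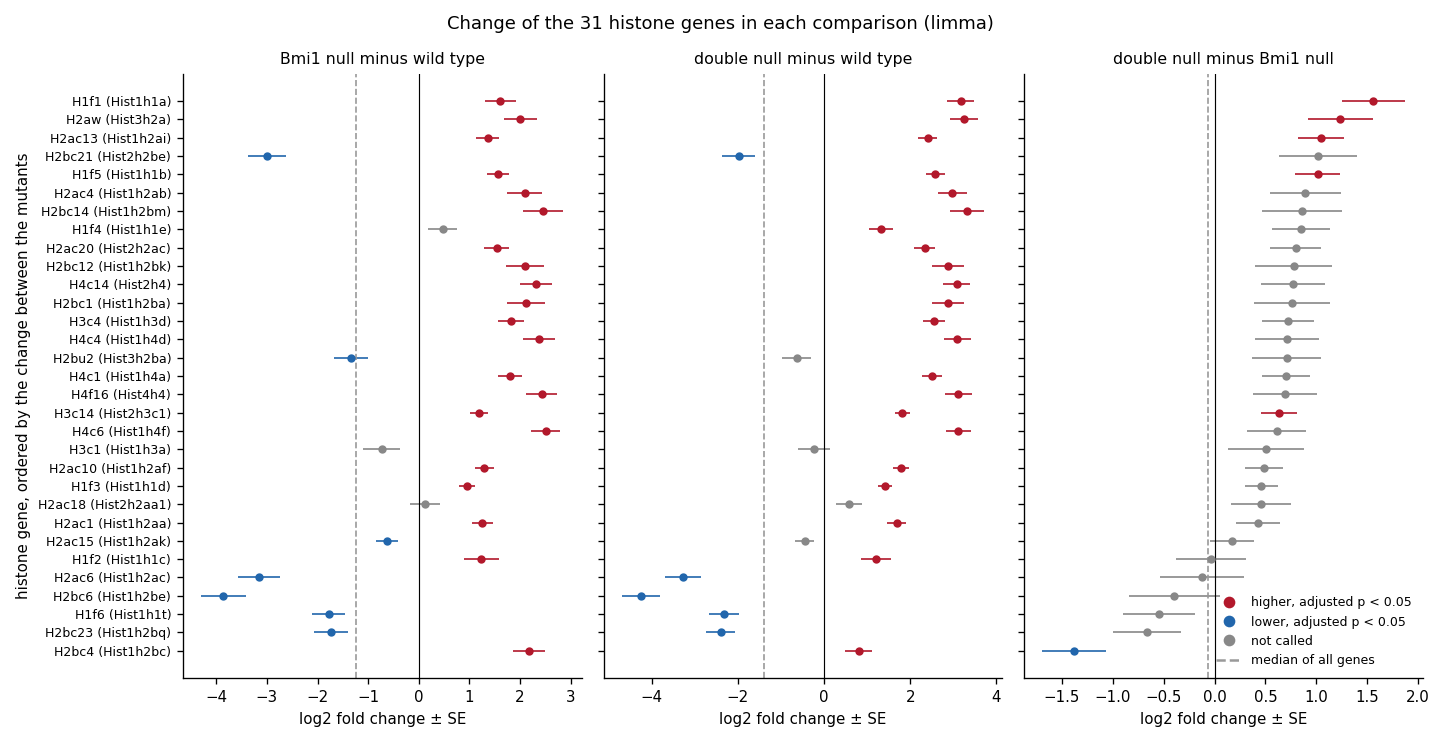
Change of each of the 31 histone genes (rows, ordered by the change between the mutants) as log2 fold change ± SE from limma in the 3 comparisons, with H2ac6 and H2bc6 at measured values that are not exact where their mutant signal was not above background; colour marks calls at an adjusted p under 0.05 and the dashed line the median of all genes. Both comparisons with wild type have points on either side of 0, at up to 2.51 and 3.32, while 25 of 31 points lie right of 0 between the mutants.

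The comparison of the 2 mutants, which asks what the added loss of Ink4a/Arf changes, does not use the wild-type arrays apart from their share in the estimate of the spread. Most histone genes had somewhat higher values in double nulls, but few passed the test one by one: 5 were higher, 1 was lower and 25 were not called. Of all genes 2.81% were called higher and 4.62% lower. The median change of the histone genes was 0.70, or 0.76 above the median of all genes, and the latter was 0.29 with normexp background correction. A total of 25 of 31 changes were above 0, beside 44.8% of all genes, and for 18 of 31 all 4 double null values lay above all 4 Bmi1 null values, beside 6.6% of all genes. For 0 of 31 did they all lie below, beside 7.18% of all genes. Of the 16 histone genes with a mean level above 2, 15 had changes above 0, with a median of 0.72, beside 55.5% and 0.058 for the 2258 genes with that level.

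H1f1 (chr13:23763668-23764412) showed the largest rise. It was at 2.50, 2.10, 2.81 and 2.33 in Bmi1 null colonies and at 4.36, 4.28, 3.91 and 3.44 in double nulls, with wild type at 0.37, 0.28, 1.12 and 1.53. The 3 genotypes did not overlap, and the rise between the mutants was 1.56 ± 0.31 (SE), or 2.95-fold (limma adjusted p = 0.010). A second linker histone, H1f5 (chr13:21779832-21780625), lay at 1.79, 1.32, 1.44 and 1.72 in Bmi1 nulls and at 2.77, 2.68, 2.68 and 2.19 in double nulls. It rose by 1.01 ± 0.22, or 2.02-fold (adjusted p = 0.016), with no overlap. By contrast H1f2 was at 3.11 ± 0.35 (SD, n = 4) and 3.07 ± 0.10 in the mutants and changed by -0.032 ± 0.34 (SE; adjusted p = 0.97).

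Of the H2A genes, H2ac13 (Hist1h2ai; chr13:21716412-21716859) was at 1.81, 0.80, 1.47 and 1.38 in Bmi1 nulls and 2.54, 2.52, 2.40 and 2.17 in double nulls. It rose by 1.04 ± 0.23 (SE), or 2.06-fold (limma adjusted p = 0.016). H2aw, from the small Hist3 locus (chr11:58954685-58955192), was at 5.88, 5.02, 6.07 and 5.75 in Bmi1 nulls and 7.06, 6.72, 7.20 and 6.69 in double nulls, a rise of 1.24 ± 0.32 (adjusted p = 0.036). Its dimmer probe changed by 0.62 ± 0.22 and was not called. H3c14 (chr3:96246685-96247348) was the one H3 gene called, at 3.57, 3.55, 4.06 and 3.79 in Bmi1 nulls and 4.38, 4.54, 4.31 and 4.28 in double nulls. Its rise of 0.64 ± 0.18 lay near the threshold (adjusted p = 0.049). In all 3 genes the groups did not overlap.

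Apart from these 5 genes and H2bc4, described next, no member was called between the mutants, though most changes were above 0. The 5 H4 genes changed by 0.61 to 0.77 with adjusted p from 0.093 to 0.24, and in 4 of the 8 H2B genes the change was 0.76 to 1.01. H2bc21, lower than wild type in both mutants, changed by 1.01 ± 0.38 (SE; limma adjusted p = 0.14).

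H2bc4 (chr13:23684199-23692480) was the one member called lower in double nulls than in Bmi1 nulls. It was at -1.06, -0.89, -1.31 and -0.83 in wild type, 1.48, 0.73, 1.31 and 1.11 in Bmi1 nulls and -0.90, -0.14, -0.56 and 0.73 in double nulls. Double null replicate 4 reached the lowest Bmi1 null value, and the fall was 1.38 ± 0.31 (SE; limma adjusted p = 0.020). The call ended with median centring (adjusted p = 0.052), in a fit of the 8 mutant arrays alone (0.080), with slide as a fixed block (0.16), with the replicate number as a block (0.072) and without double null replicate 3 (0.062), and the range over all alternatives was 0.0025 to 0.16.

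The calls between the mutants changed with the way slide was fitted. With slide as a fixed block, which leaves fewer residual degrees of freedom, limma called 0 histone genes higher and 0 lower. The changes of H1f1, H1f5 and H2ac13 were then 1.46, 1.11 and 1.14, beside 1.56, 1.01 and 1.04 without the block. Their limma adjusted p-values were 0.099, 0.095 and 0.093, the highest over all alternatives. At an unadjusted p under 0.05 the fixed block fit had 9 histone genes higher and 1 lower, beside 16 and 1 without the block. With slide as a random block (correlation 0.0315) 30 of 31 genes kept the same result. Why the calls were lost was not tested. On the slide with 1 array of each mutant the histone median changed by 1.14 and 27 of 31 genes were above 0, beside -0.17 for all genes. On the slide with 2 double null arrays and 1 Bmi1 null array it changed by 0.27 and 26 of 31 were above 0, beside -0.13. The call of H3c14 rested on nearly every array: it was lost without any 1 array other than Bmi1 null replicate 3, with adjusted p from 0.061 to 0.12. H3c14 also lost it with median centring (adjusted p = 0.056), quantile normalization (0.10), normexp correction (0.13), no filter on dim probes (0.054), the 8 mutant arrays alone (0.12), array weights (0.11), the replicate block (0.10) and slide as a random block (0.051), within a range of 0.016 to 0.39 over all alternatives. H1f5 lost its call with quantile normalization (0.062) and H2ac13 with the 8 mutant arrays alone (0.060). H2aw lost it with normexp correction (0.14), with the authors' processed values (0.065), with array weights (0.15) and without any 1 of 8 of the 12 arrays, within a range of 0.018 to 0.18. Without any 1 of wild-type replicates 3 and 4, Bmi1 null replicates 1, 2 and 4 and double null replicates 2 and 3, the number called higher was 3.

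Between neighbouring genes the levels sometimes parted. H2ac6 and H2bc4, which share the 239-base stretch printed above with its octamer and CCAAT boxes, moved in opposite directions in Bmi1 null colonies. H2bc4 rose by 2.18, and H2ac6, not well above background on any Bmi1 null array, was lower by the bound given above, at least 7.88-fold. H2ac6 was tested only because of its wild-type signal, and with the authors' processed values its fall was not called. H2ac20 and H2bc21, with 191 bases between them, did so too, at 1.53 and -3.0 in Bmi1 nulls and 2.33 and -1.98 in double nulls against wild type. The pair H2bc1 and H2ac1, 280 bases apart, rose together by 2.12 and 1.26 in Bmi1 nulls and by 2.88 and 1.68 in double nulls. Of H4c4 and H2bc6, 1700 bases apart, the first rose by 2.37 in Bmi1 null colonies, while the second, not well above background there, has only its bound of at least 9.38-fold lower. Between H4c1 and H3c1 (635 bases) the changes were 1.80 and -0.73, the latter not called.

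**Figure D3:**
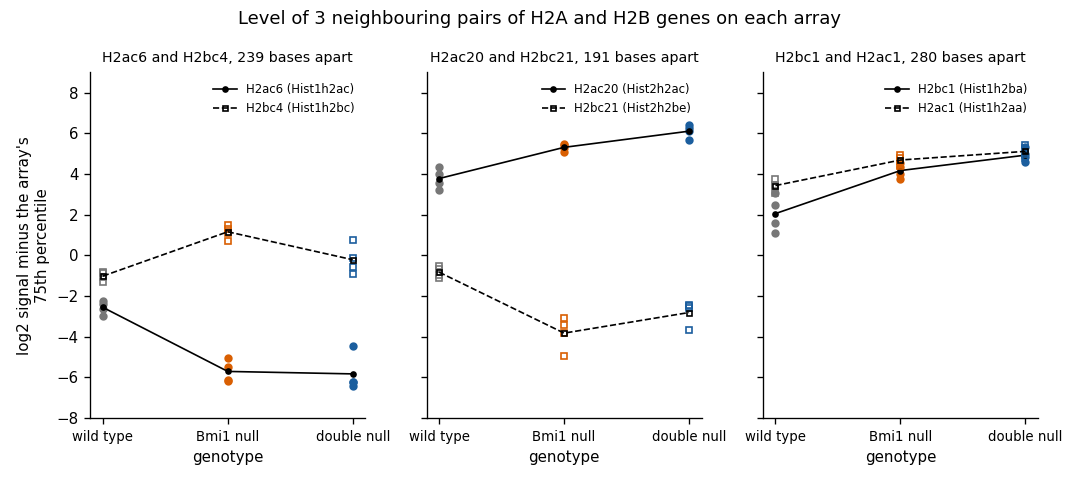
Level of 3 neighbouring pairs of H2A and H2B genes on each array, as log2 signal less that array's 75th percentile, by genotype; filled circles and solid lines show the first gene of a pair, open squares and dashed lines the second, and lines join the means. The H2ac6 points of the mutants were not well above background but for 1 double null array. H2ac6 and H2bc4 (239 bases apart) and H2ac20 and H2bc21 (191 bases apart) part after wild type, while H2bc1 and H2ac1 (280 bases apart) rise together.

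The genes also differ in annotated span. Of the tested members 4 span more than 1000 bases in the RefSeq annotation, a limit set after the values had been seen, and all are H2B genes: H2bc21 (2667 bases), H2bc23 (3788), H2bc4 (8282) and H2bc6 (37455). Against wild type 1 of the 4 was higher and 3 were lower in each mutant, with median changes of -2.36 and -2.19. Among all genes 25.2% were higher and 58.3% lower in Bmi1 nulls, and 25.7% and 59.7% in double nulls. H2bc6, and H2ac6 among the shorter genes, passed the filter through the wild-type arrays alone. With normexp background correction the double null call of H2bc6 was lost (-0.80, limma adjusted p = 0.086). The 27 shorter genes were higher in 20 and lower in 4 cases in Bmi1 null colonies, and higher in 21 and lower in 2 in double nulls. Between the mutants H2bc4 alone of the 4 was called, as lower, while 5 of the 27 rose. Of all genes 4.62% were called lower and 2.81% higher there. Since the limit was chosen on these values and the 4 are of 1 class, with H2bc4 higher than wild type, the counts describe these genes and carry no test. Where the probes lie along these genes was not analysed here.

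The changes are also given by promoter motif. Of the 9 tested members with the octamer 7 were higher and 2, H2ac6 and H2bc6, lower in Bmi1 null colonies. The median change of the 9 was 2.01. H2ac6 and H2bc6 passed the filter through the wild-type arrays alone, so a lower signal in the mutants was needed for both. Of the 18 without the octamer 12 were higher and 4 lower, with a median of 1.26. Among all genes 25.2% were higher and 58.3% lower, with a median of -1.24. Between the mutants 1 of 9 and 4 of 18 were called higher, beside 2.81% of all genes, with medians of 0.78 and 0.66. H1f1, with the largest rise, was the one H1 gene without an AC box in its window, and H1f5 and H1f6, with one, changed by 1.01 and -0.55. These are descriptions of a small list, and no difference between its subsets was tested.

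Among factors that make and process histone mRNA 29 were tested. Of these 16 were higher and 4 lower in Bmi1 nulls, beside 25.2% and 58.3% of all genes, and 19 were higher and 4 lower in double nulls, beside 25.7% and 59.7%. Between the mutants 2, Slbp and Ccne2, rose and 0 fell, beside 2.81% and 4.62% of all genes. At an unadjusted p under 0.05, 8 were higher and 1 lower. Of this list 3 genes, Slbp, Ccne2 and Casp8ap2, are also on the S phase list below and are counted in both. Slbp, which binds the histone stem-loop, was at 0.52 ± 0.35 (SD, n = 4) in Bmi1 nulls and 1.35 ± 0.087 in double nulls, a rise of 0.83 ± 0.22 (SE; limma adjusted p = 0.037). Ccne2, a cyclin E that activates Cdk2 at the start of S phase, rose by 1.01 ± 0.19 (adjusted p = 0.008). Npat changed by 0.25 ± 0.18 (adjusted p = 0.46) and Casp8ap2, needed for histone gene transcription, by 0.085 ± 0.24 (adjusted p = 0.89). Both were higher than wild type in each mutant.

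Histone chaperones carry histones to chromatin. Of 25 tested, 18 were higher and 6 lower in Bmi1 nulls against wild type, beside 25.2% and 58.3% of all genes. In double nulls 19 were higher and 4 lower, beside 25.7% and 59.7%. Of the 25, 3 are also on the S phase list below and 2, with Anp32e among them, on the G2/M list. Only 2 were called higher and 1 lower between the mutants, beside 2.81% and 4.62% of all genes. Between the mutants Anp32e, which removes H2A.Z, rose by 1.29 ± 0.22 (SE; limma adjusted p = 0.0053) and Asf1b, which hands on H3 and H4, by 1.24 ± 0.19 (adjusted p = 0.0025). Ipo4, an importin for H3 and H4, fell by 0.80 ± 0.20 (adjusted p = 0.031). The variant histones made outside S phase had 12 tested genes. Against wild type 5 were higher and 2 lower in Bmi1 nulls, beside 25.2% and 58.3% of all genes, with a median change of 0.057. In double nulls 8 were higher and 2 lower, beside 25.7% and 59.7%, with a median of 0.90. Between the mutants 4 variant genes rose and 0 fell, beside 2.81% and 4.62% of all genes. H1f0 rose by 1.58 ± 0.20, H2az1 by 1.23 ± 0.29, Macroh2a2 by 1.02 ± 0.27 and the centromeric Cenpa, also on the G2/M list, by 0.92 ± 0.20.

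S phase genes, which act in DNA replication and its control, went in both directions in Bmi1 nulls, in numbers that turn on the scaling. Of 42 tested, 12 were higher and 10 lower in Bmi1 null colonies, beside 25.2% and 58.3% of all genes, with a median change of 0.088, beside 1.36 for the histone genes. At an unadjusted p under 0.05 there were 12 higher and 12 lower, and with median centring 28 higher and 3 lower. In double null colonies 28 were higher and 2 lower, beside 25.7% and 59.7% of all genes. Their median was 1.07, beside 1.81 for the histone genes. Between the mutants 21 rose and 0 fell, beside 2.81% and 4.62% of all genes. All 42 changes were above 0, beside 44.8% of all genes, and the median was 0.99, beside 0.70 for the histone genes. G2/M phase genes, with 52 tested, showed 24 higher and 2 lower between the mutants, beside the same 2.81% and 4.62%, with a median of 0.89. Above the median of all genes of the same array, the S phase median averaged -0.10 ± 0.33 (SD over 4 arrays) in wild type, 1.11 ± 0.26 in Bmi1 nulls and 2.27 ± 0.11 in double nulls. Whether the lists differ from each other was not tested.

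Other gene families showed how far the wild-type arrays stood apart. Against wild type 25.2% of all genes were higher and 58.3% lower in Bmi1 nulls, and 25.7% and 59.7% in double nulls. Of 875 tested olfactory receptor genes, mostly of a single coding exon like the histone genes, 869 were lower in Bmi1 nulls and 874 in double nulls, with median changes of -3.54 and -3.72. In other families of single-exon genes 160 and 159 of 161 were lower. Between the mutants 21 olfactory receptor genes were lower and 0 higher, beside 4.62% and 2.81% of all genes. Ribosomal protein genes, needed in every cell, went the other way: 72 of 78 were higher in Bmi1 null colonies and 73 in double nulls, with medians of 2.02 and 2.14. Between the mutants limma called 0 of 78 in either direction, with 6 higher and 2 lower at an unadjusted p under 0.05, and the median change was 0.15.

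**Figure D4:**
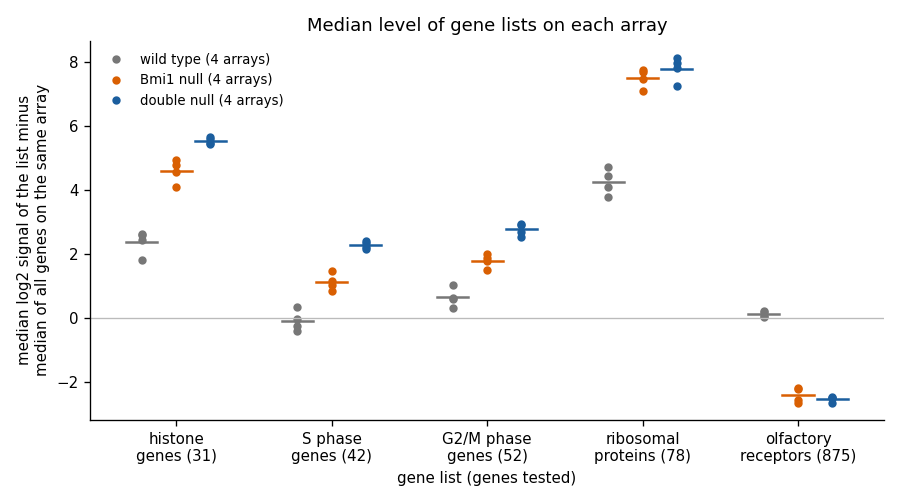
Median log2 signal of 5 gene lists minus the median of all genes on the same array (y axis); points are arrays and bars the mean of 4 arrays of a genotype. Histone genes stand at 1.78 to 2.60 in wild type, 4.09 to 4.93 in Bmi1 nulls and 5.44 to 5.65 in double nulls, and the ribosomal protein and olfactory receptor lists overlap between the mutants.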

How the data were processed

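Amplified total RNA of 12 single colonies was hybridised to 1-colour Agilent arrays, per the labels' protocols. The authors extracted each array with Feature Extraction 10.7.3.1 (protocol GE1_107_Sep09), per the file headers, and the deposited unit is a background-subtracted intensity per spot. A deposited table of the authors' processed values, on a log2 scale with column medians of 7.21 to 7.24, served as an alternative. The sources used here do not state how that table was normalized, and its direction was taken from its correlation with the scanner signal.

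Control spots were left out, and outlier spots were set to missing. The log2 signal less each array's 75th percentile was used for 39338 probes well above background on at least 3 of 4 arrays of a genotype. The probe with the highest mean stood for a gene. Of 41174 probes 24844 had 1 RefSeq symbol (GRCm38.p6), 0 several and 16330 none. Names came from accessions matched without versions.

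Genotype means were fitted to all 12 arrays together with limma 3.58.1 (R 4.3.3; lmFit, eBayes), leaving 9 residual degrees of freedom. P-values were adjusted over 31064 genes, and the threshold was 0.05. The members, lists, tests and the rule for naming genes were chosen with earlier results of these data known. The rule named the genes with the largest called changes without overlap, up to 8 in each direction and comparison, and the 2 genes of each class with the highest mean signal. It added the germ-line and Hist2h, Hist3h and Hist4h members, genes whose probes disagreed, the targets, Slbp, Npat, Casp8ap2 and up to 3 called genes of each companion list. Members outside it (H1f4, H2ac15, H3c1 and H2ac8) were named after their values were seen.

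Alternatives were other scalings (median, quantile), normexp correction, the authors' values, other filters, the mean of probes, kept outliers, slide or replicate blocks, array weights, the 8 arrays of a comparison, and leaving out each array. Normexp (offset 50) used the spot median signal, since a mean signal was not among the columns used. The code was tested on simulated data. Median signal was 63.2 to 210 over a local background of 17 to 23, and the number of arrays limits the precision. Array pairs with the same replicate number had correlated deviations of -0.14 to 0.22, so the numbers were not taken as pairs.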

Additional observations from a re-analysis of the deposited data

Results flagged for a closer look

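A single colony stood apart from the other 3 of its genotype in 7 of the 125 groups of 4 values checked. Chance flags about 1 in 20 independent groups, but these groups share arrays, and all 7 were of double null colonies, so how many chance would give here was not tested. In replicate 1 the median of the histone genes was 3.64, above the next at 3.15, H2ac6 was at -4.44, above the next at -6.23, and H2ac10 was at 5.11, below the next at 5.56. In replicate 2, H2bc21 was at -3.70, below the next at -2.62. In replicate 3, H4c1 was at 7.86, above the next at 7.18. In replicate 4, H1f5 was at 2.19, below the next at 2.68, and the median of the histone chaperones was 0.58, below the next at 1.06. No cause was tested.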

How the results depend on the processing

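Against wild type the 21 higher calls in Bmi1 null colonies numbered 21 to 22 and the 7 lower calls 6 to 8 when each array was left out, and the median above all genes was 2.45 to 2.82. In double null colonies these were 21 to 23, 5 to 6 and 3.10 to 3.37. Between the mutants the 5 higher calls numbered 3 to 5, the single lower call 0 to 1, and the median above all genes was 0.62 to 0.85. With probes well above background on all 12 arrays there were 4 lower calls in Bmi1 nulls and 2 in double nulls, with medians of 1.81 and 2.70. With quantile normalization the medians were 1.22 and 1.97, and with the authors' processed values 1.09 and 1.59. With the mean of the probes of a gene, 19 genes were called higher in Bmi1 nulls and 21 in double nulls. With normexp correction double null colonies had 3 lower calls and a median of 2.23 against wild type, and a median of 0.29 against Bmi1 null. Between the mutants 3 genes were called higher with quantile normalization, normexp correction, the 8 arrays alone and array weights. With slide as a fixed block 0 were called higher. The lower call became 0 with median centring, the 8 arrays alone, the slide block and the replicate block; the replicate block changed no other count beyond 1.5 times, and replicate numbers were not taken as pairs. Directions that reversed were H2bu2 in Bmi1 null (0.27 quantile, 0.088 authors' values) and double null colonies (1.01, 0.53), H3c1 in Bmi1 null (1.89, 0.46) and double null colonies (2.40, 0.70), H2ac15 in Bmi1 null colonies (0.31, median centring) and H1f3 in double nulls (-0.085, mean of probes), all against wild type. Apart from fewer genes or arrays in some fits, the cause was not tested. Probes near background limit what H2ac6, H2bc6 and H3c1 can show.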
